A study of Mus musculus with 6 samples.

Results

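The SNARE and syntaxin-binding genes are the gene symbols that name a vesicle-associated membrane protein (Vamp), a syntaxin (Stx), a syntaxin-binding protein (Stxbp), the SNAP proteins Snap23, Snap25, Snap29 and Snap47, the Golgi and endosomal SNAREs Vti1a, Vti1b, Gosr1, Gosr2, Bet1, Bet1l, Ykt6 and Sec22b, or the disassembly factors Napa, Napb, Napg and Nsf. The rule uses symbols and no levels, and it was set with earlier results of these data known. Of the 22609 genes counted, 43 were members, and 40 of the 43 had enough reads to be tested among 13117 genes in all. Their RNA was compared between primary white adipocytes with mimic control (n = 3) and with miR-182-5p mimic (n = 3). Both groups were stromal cells of inguinal fat from male C57BL6 mice, aged 3 weeks by the labels, which were differentiated in culture, and the labels name no engineered allele. The labels describe electroporation of a control vector or miR182, whereas the study's methods describe a synthetic mimic and a lipid reagent. The methods also give another age for the mice whose stromal cells were isolated. No sort of the cells after differentiation is described. Nothing says that the 3 samples of a group came from separate mice or cultures, so the p-values measure only the spread between these samples, which may be technical.

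SNARE proteins drive membrane fusion. An R-SNARE on the vesicle, usually a VAMP, zips together with Q-SNAREs on the target membrane (Qa, the syntaxins, with Qb and Qc partners, or a Qbc protein of the SNAP family that supplies both of these helices), and Sec1/Munc18 proteins, encoded by Stxbp genes, clasp the syntaxin while this happens. After fusion the ATPase NSF and its SNAP adaptors, which despite the name are unrelated to SNAP-23 and its kin, pull the bundle apart for another round. In adipocytes, insulin sends vesicles with the glucose transporter GLUT4 to the plasma membrane, where VAMP2, syntaxin 4 and SNAP-23 form the fusion complex, and VAMP3, also called cellubrevin, is a closely related R-SNARE of recycling endosomes.

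A miRNA pairs with messenger RNAs chiefly through its seed, bases 2 to 8, and most functional matches lie in 3′-UTRs. The mature sequence of mmu-miR-182-5p from RefSeq (GRCm38.p6, chr6:30165962-30165986, minus strand) is shown because it defines the match searched for, with the seed in capitals.
mmu-miR-182-5p: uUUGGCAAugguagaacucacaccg
mmu-miR-30a-5p: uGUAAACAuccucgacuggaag
The other mature sequence, of mmu-miR-30a-5p (GRCm38.p6, chr1:23272274-23272295, plus strand), is shown because the sequence listed in the study's methods for the qPCR of miR-182-5p carries the seed GUAAACA and not UUGGCAA. The listed sequence shares this seed with miR-30a-5p but differs from it in later bases. Which seed the transfected molecule carried was not tested. The 3′-UTR match is TTGCCAA for miR-182-5p and TGTTTAC for miR-30a-5p.

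Among the 40 members tested, 6 held TTGCCAA in their longest annotated 3′-UTR, each of them in 1 copy. Their sites are shown 5′ to 3′ on the transcript strand in 30 bases of GRCm38, with the match in capitals, since 4 of these 6 genes are among the members that fell.
Vamp3: aaagtttctattTTGCCAAaagttaagtac
Napa: tttaccatgggaTTGCCAAgaagccttgtg
Stx17: gatcctgaaataTTGCCAAacacactgggc
Snap47: ttttcaccatttTTGCCAAacagtagagaa
Snap23: gatttggaagcaTTGCCAAagagccatgaa
Vti1a: tgtgcaacttcaTTGCCAAggggcagattt
The matches themselves lie at chr4:151048337-151048343 (minus strand, Vamp3), chr7:16117494-16117500 (plus, Napa), chr4:48183197-48183203 (plus, Stx17), chr11:59407321-59407327 (minus, Snap47), chr2:120599596-120599602 (plus, Snap23) and chr19:55624433-55624439 (plus, Vti1a). In Vamp3, Stx17, Snap47 and Snap23 an A follows the match, which makes the 8-base match TTGCCAAA.

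With the mimic, 2 members were called at a fold change of at least 1.5 and an adjusted p under 0.05, and both were lower. These were Vamp3, with a 3.34-fold decrease, and Stxbp6, with a 2.29-fold decrease at a low level. The 2 called members are 5.0% of those tested, whereas 7.45% of all genes tested were called, 5.48% lower and 1.97% higher. By the adjusted p alone 20 members passed, 11 lower and 9 higher. That is 50.0% of the members, against 46.7% of all genes (23.5% lower and 23.2% higher). In 20 of the 40 members the CPM (read counts scaled to library size) of the groups did not overlap, against 54.8% of all genes. Most changes were small: 37 members (92.5%) differed by under 1.25-fold, against 76.4% of all genes, and without Vamp3 and Stxbp6 the log2 fold changes ran from -0.33 to 0.26. The median log2 fold change was -0.037 over the members and -0.0043 over all genes. The shares past a test were thus near those of all genes, while Vamp3 had the second smallest p of all genes tested.

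**Figure D1:**
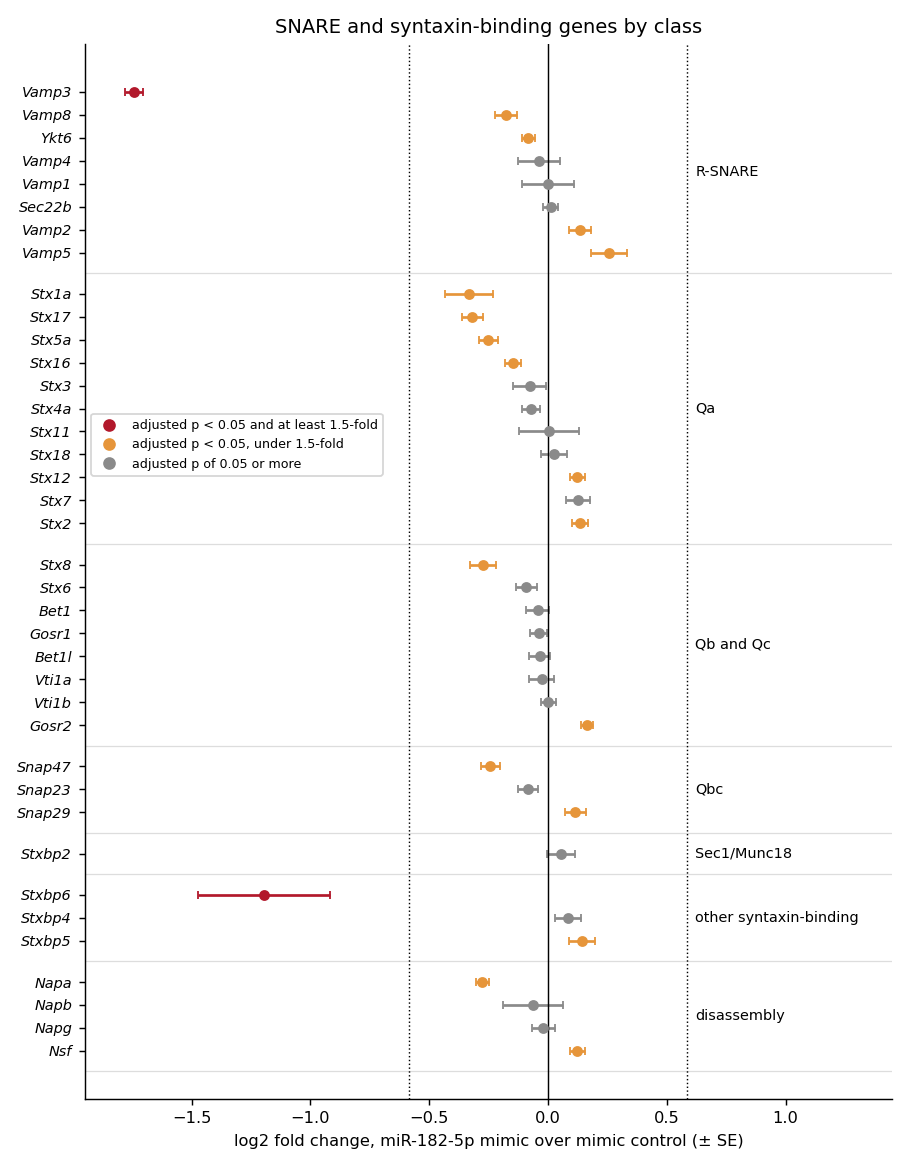
Each point is the log2 fold change of a tested member that is named here (miR-182-5p mimic over mimic control, x axis, with its SE), grouped by SNARE class, and the dotted lines mark a 1.5-fold change. Vamp3 (-1.74) and Stxbp6 (-1.20) lie beyond the line, and the other 36 lie between -0.33 and 0.26.

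The 6 libraries held 25869810 to 28796712 reads on genes, and the first principal component, with 64.4% of the variance, separated the groups. The summed marker levels of the adipocytes and of other cell types differed between the groups without overlap, except for macrophages. Single genes carried several of these sums. The summed level of 8 adipocyte markers, all detected, was 6330 to 6650 CPM with mimic control and 4360 to 4940 CPM with the mimic. Fabp4 went from 3320 to 2070 CPM on average and was called. Adipoq (928 to 675 CPM), Cebpa (383 to 260), Cidec (333 to 261) and Pparg (190 to 153) were also lower by the adjusted p. Lep rose (adjusted p = 0.00276), and Plin1 and Lipe did not pass. The summed level of 6 stromal progenitor markers was 1480 to 1510 and 1190 to 1320 CPM. Pdgfra (450 to 248 CPM) and Cd34 (17.7 to 6.14) were called lower. Ly6a (461 to 361) and Dlk1 (36.1 to 27.3) were lower by the adjusted p. Thy1, the most abundant, rose from 524 to 596 CPM (adjusted p = 0.000347), and Dpp4 was not tested. The 4 endothelial markers summed to 7.78 to 9.15 and 4.97 to 5.49 CPM through Tek alone, which fell from 6.05 to 2.43 CPM (adjusted p = 1.49e-06), while Pecam1, Cdh5 and Kdr were not called. The 7 macrophage markers summed to 13.4 to 14.4 and 11.7 to 14.8 CPM, mostly through Cd68 and Csf1r, which did not pass. Itgam was at or under 3 reads in every library. Emr1, Ptprc and Mrc1 had at most 8 reads in any library and, like Itgam, were not tested. The 6 neuronal and glial markers, mostly Tubb3, went from 67.0 to 70.2 CPM to 92.7 to 95.8 CPM, with the neuronal marker Rbfox3 at 0 reads. Tubb3 and Mbp rose, whereas S100b fell from 3.27 to 2.0 CPM (adjusted p = 0.00455), and Syp and Syn1 did not pass. The 3 skeletal muscle markers went from 18.2 to 18.6 CPM to 28.4 to 32.7 CPM through Acta1 alone, since Myh4 and Ckm had 0 reads. The 3 smooth muscle markers went from 77.6 to 86.2 CPM to 86.5 to 91.4 CPM, and of them only Cnn1 passed (adjusted p = 0.00689). The part of these shifts in the members' differences was not tested, and in such bulk samples fewer cells of a type and less RNA per cell cannot be told apart.

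The R-SNAREs were led by the fall of Vamp3. Mimic control samples held 2629, 2740 and 2743 Vamp3 reads, and mimic samples 942, 816 and 859. In CPM this was 103, 105 and 105 against 32.3, 31.0 and 30.4. All mimic samples lay far below all control samples, and the spread within each group was about 1 CPM (104 ± 0.998 and 31.2 ± 0.946, mean ± SD, n = 3). The log2 fold change was -1.74 ± 0.038 (SE; edgeR's quasi-likelihood test, adjusted p = 9.6e-13), so the level fell by 70.1%. Leaving out any library kept it between -1.77 and -1.72. Vamp3 lies at chr4:151047300-151057963 on the minus strand of GRCm38, and no exon of another annotated gene overlaps its exons.

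Of the other 7 R-SNAREs tested, 2 were lower, 2 were higher and 3 did not pass. Vamp8, an R-SNARE of late endosomes and of regulated secretion, had 46.2, 44.5 and 41.7 CPM with mimic control and 39.2, 38.6 and 39.2 CPM with the mimic. The groups did not overlap, and the log2 fold change was -0.18 ± 0.048 (adjusted p = 0.00725). Ykt6, a lipid-anchored SNARE of the Golgi and of autophagosomes, fell from 164 ± 3.85 to 155 ± 0.739 CPM (log2 fold change -0.082, adjusted p = 0.0277). Ykt6 did not pass in DESeq2 (adjusted p = 0.0872). Nor did it pass without control replicate 1 or 2 or mimic replicate 2 or 3 (edgeR, adjusted p from 0.0566 to 0.111). Vamp2, the GLUT4 vesicle SNARE, moved the other way from its relative Vamp3: it had 43.7, 45.7 and 44.3 CPM with mimic control and 46.5, 50.8 and 49.7 CPM with the mimic. The increase was small, 0.14 on the log2 scale (adjusted p = 0.0251), with groups that did not overlap. Without control replicate 1 or 3 or mimic replicate 2 or 3 Vamp2 kept its direction but did not pass (adjusted p from 0.0641 to 0.0976). Vamp5, known from muscle, rose from 10.1 ± 0.335 to 12.1 ± 0.882 CPM (log2 fold change 0.26, adjusted p = 0.0133). It did not pass without control replicate 3 or mimic replicate 1 (adjusted p from 0.0517 to 0.0643). Sec22b, of traffic between endoplasmic reticulum and Golgi, Vamp4, of the trans-Golgi network, and Vamp1 did not pass (log2 fold changes 0.012, -0.039 and -0.002). Vamp7 was listed with 0 reads in all 6 libraries and was not tested. Its symbol had no match in the annotation used here, and whether its reads could be counted is not known, so the 0 sets no limit on its level.

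**Figure D2:**
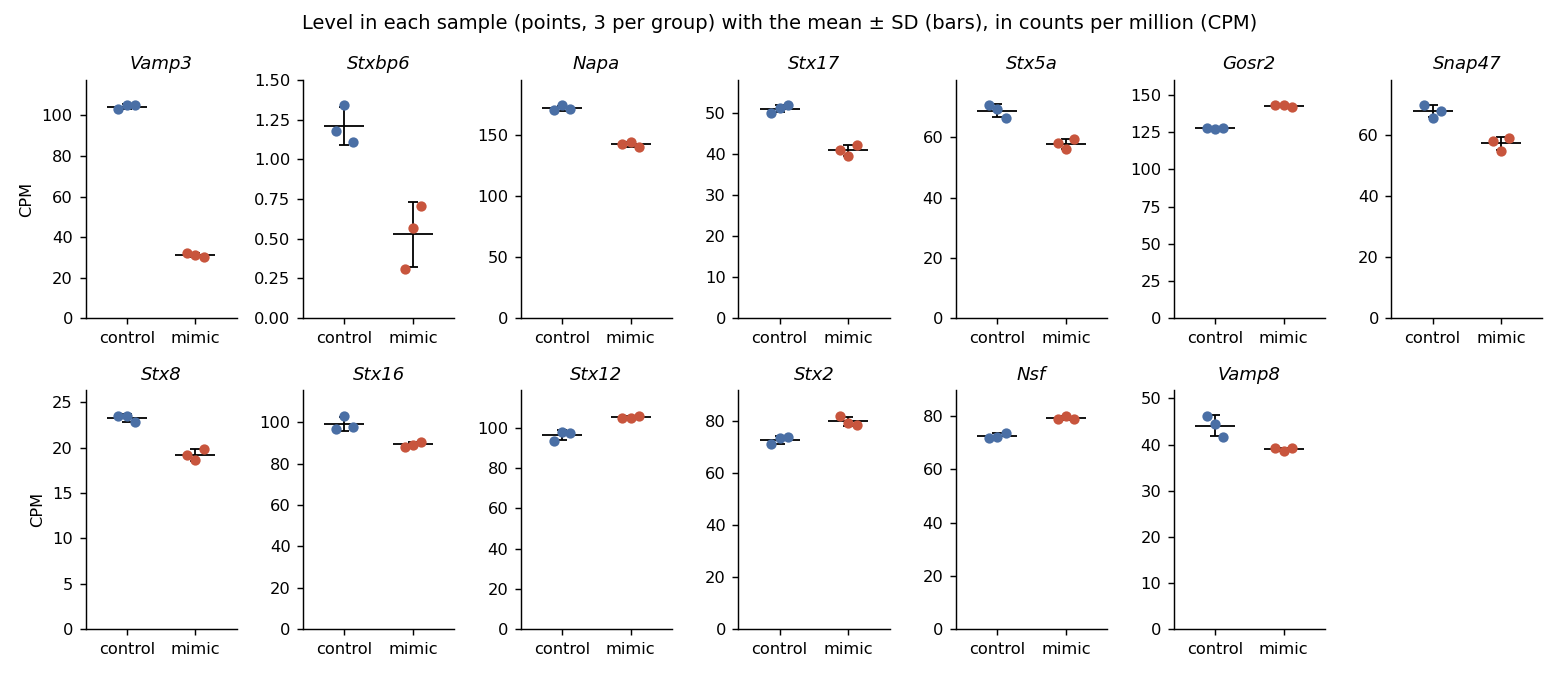
Level in CPM (y axis, from 0) of 13 members that are named here and were called or had the smallest p among the others. Each has 3 points per group with the mean ± SD. In every panel the control and mimic points do not overlap, and the gap is widest for Vamp3 (104 against 31.2 CPM).

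Because a SNARE complex takes a single R-SNARE, the make-up of the R-SNARE transcripts was compared per length, as CPM per kilobase of annotated exon (RPKM). The shares, ranks and sums cover the 8 R-SNAREs tested and leave out Vamp7, whose level is not known. With mimic control, Vamp3 held 23.5, 24.1 and 24.6% of the transcripts of these 8 genes, the second largest share after Ykt6. With the mimic it held 9.09, 8.84 and 8.70%, which was the fifth largest, below Vamp2. The difference in share was -15.2 percentage points (two-sided p = 0.1 by the exact permutation test, which cannot go lower with 3 against 3 samples, and 0.155 after Benjamini-Hochberg adjustment over the 31 shares compared). Vamp2 went from 7.79 ± 0.223% to 10.6 ± 0.556%, so that the per-length level of Vamp3, 36.1 ± 0.345 against 11.7 ± 0.263 RPKM for Vamp2 with mimic control, became 10.8 ± 0.328 against 12.9 ± 0.584 RPKM. The order of the related pair of R-SNAREs was thereby turned around, with no overlap of the samples in either group. Ykt6 went from 36.5 ± 0.338% to 42.6 ± 0.175% and Sec22b from 14.4 ± 0.0235% to 17.9 ± 0.203%. The share of Vamp8 went from 12.7 ± 0.448% to 13.9 ± 0.153%. In CPM, Ykt6 and Vamp8 fell and the change of Sec22b did not pass. Their shares rose all the same, since the shares sum to a whole. The summed R-SNARE level was 150 ± 2.42 RPKM with mimic control and 122 ± 0.984 RPKM with the mimic (ratio 0.81, exact permutation p = 0.1). Without Vamp3 it was 114 ± 2.7 and 111 ± 0.66 RPKM (ratio 0.971, exact permutation p = 0.2).

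**Figure D3:**
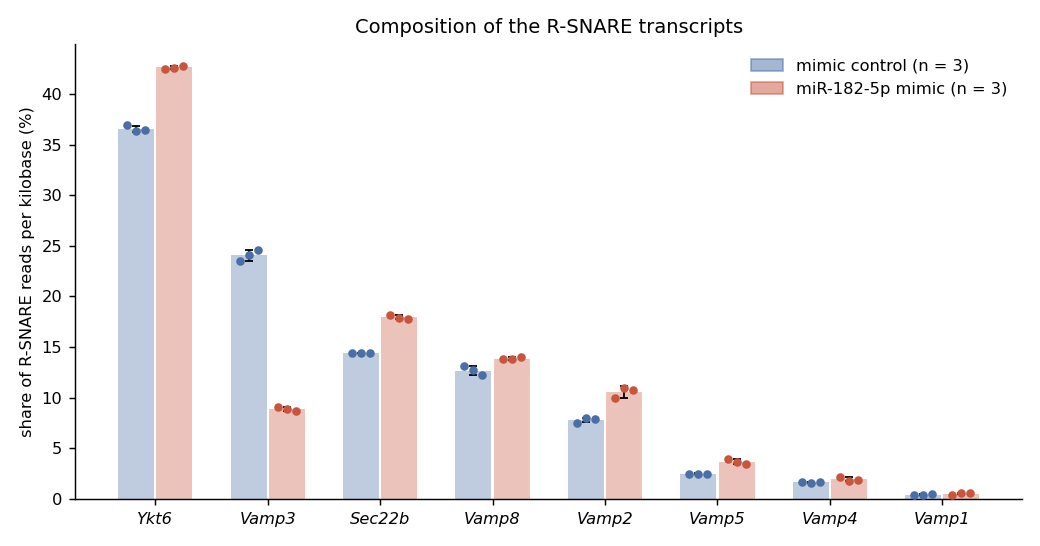
Share of each tested R-SNARE in the summed reads per kilobase of the tested R-SNAREs, without Vamp7 (y axis, percent). Bars show the mean, error bars the SD and points the samples. Vamp3 drops from at least 23.5% to at most 9.09%, and the means of the other 7 genes are higher with the mimic.

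Of the 12 Qa syntaxins tested, 4 were lower, 2 were higher and 6 did not pass. Stx17, the syntaxin of autophagosomes that fuse with lysosomes, had 50.0, 51.1 and 51.8 CPM with mimic control and 40.9, 39.5 and 42.2 CPM with the mimic. The groups lay far apart for their spread, at a log2 fold change of -0.32 ± 0.043 (adjusted p = 3.49e-05). Stx5a, of the early Golgi, had 70.6, 69.5 and 66.5 CPM against 58.0, 56.1 and 59.4 CPM. The groups did not overlap, and the log2 fold change was -0.25 ± 0.039 (adjusted p = 0.000123); 109 of its exon bases are shared on the same strand with Mir6992. Stx16, of the trans-Golgi network, had 96.5, 103 and 97.9 CPM against 88.2, 89.2 and 90.5 CPM. This was a smaller decrease, -0.15 ± 0.033 (adjusted p = 0.00213). Stx1a, best known from synapses, was low here and fell from 8.77 ± 0.968 to 6.96 ± 0.504 CPM (log2 fold change -0.33, adjusted p = 0.0135). It did not pass without control replicate 1 or 3 or mimic replicate 2 (adjusted p from 0.058 to 0.0666).

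The 2 syntaxins that rose act at endosomes and the cell surface. Stx12, of recycling endosomes, had 93.5, 98.1 and 97.7 CPM with mimic control and 105, 105 and 106 CPM with the mimic (log2 fold change 0.12 ± 0.031, adjusted p = 0.00456). Stx2, a plasma membrane syntaxin, had 71.1, 73.4 and 73.9 CPM against 81.9, 79.2 and 78.5 CPM (0.13 ± 0.034, adjusted p = 0.00542). In both genes each mimic sample was above each control sample. Stx4a, the syntaxin 4 gene and the GLUT4 target SNARE, had 83.7 ± 2.36 CPM with mimic control and 79.7 ± 2.75 CPM with the mimic. Its groups overlapped, and the change of -0.071 ± 0.037 on the log2 scale did not pass (adjusted p = 0.129), although it did without mimic replicate 1 (adjusted p = 0.0374). Stx7, of late endosomes, did not pass (0.13, adjusted p = 0.0527) but did with no filter (adjusted p = 0.0494) and without mimic replicate 2 (adjusted p = 0.0147). Stx3, Stx11 and Stx18 did not pass, with log2 fold changes from -0.077 to 0.026. Stx19 had 3 to 7 reads per library and was not tested. The summed Qa level was 153 ± 0.968 RPKM with mimic control and 150 ± 2.74 RPKM with the mimic (exact permutation p = 0.2).

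The 8 Qb and Qc SNAREs held 1 lower and 1 higher member by the adjusted p. Stx8, a Qc SNARE of late endosomes, had 23.5, 23.5 and 22.8 CPM with mimic control and 19.2, 18.6 and 19.9 CPM with the mimic. The groups lay well apart, with a log2 fold change of -0.27 ± 0.055 (adjusted p = 0.000897). Gosr2, the Golgi SNARE membrin, had 128, 127 and 128 CPM against 143, 143 and 142 CPM. Its replicates varied little (SD 0.571 and 0.515 CPM), and the log2 fold change was 0.16 ± 0.027 (adjusted p = 0.000191), although 149 of its exon bases lie opposite another gene. Vti1a, Vti1b, Gosr1, Stx6, Bet1 and Bet1l did not pass, with log2 fold changes from -0.091 (Stx6) to 0.002 (Vti1b).

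The Qbc SNAREs held 1 member that fell and 1 that rose. Snap47 had 69.7, 65.7 and 67.9 CPM with mimic control and 58.1, 54.8 and 58.9 CPM with the mimic. It was the most abundant of the class per length, at 25.6 RPKM with mimic control, and its log2 fold change was -0.24 ± 0.041 (adjusted p = 0.000249). Its exons overlap those of Jmjd4 on the opposite strand over 307 bases, and the strand setting of the counting is not given in the sources used here. Snap29, which fuses autophagosomes together with syntaxin 17, went from 45.0 ± 0.953 to 48.7 ± 1.67 CPM (0.11, adjusted p = 0.0434). It did not pass in DESeq2, with upper-quartile factors, with no filter or with the replicate block (adjusted p from 0.0552 to 0.0868). The same held in 5 of 6 fits that left out a library (adjusted p from 0.0538 to 0.14), all but that without mimic replicate 3. Snap23, the partner of syntaxin 4 at the adipocyte surface, had 64.0 ± 3.33 and 60.4 ± 0.629 CPM and did not pass (-0.084 ± 0.042, adjusted p = 0.123), although it did without control replicate 1 (adjusted p = 0.0246). Snap25, the neuronal form, was near the floor with 4, 6 and 8 reads under mimic control but 2, 0 and 3 under the mimic, too few to be tested. Within the class the share of Snap47 went from 47.8 ± 1.37% to 43.4 ± 1.37% and that of Snap29 from 24.4 ± 0.147% to 28.4 ± 1.1% (exact permutation p = 0.1 for each).

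Among the syntaxin-binding genes, Stxbp6 was called and the others moved by less. Stxbp6 encodes amisyn, a protein with a VAMP-like SNARE motif that binds syntaxin and SNAP proteins. Its reads numbered 30, 35 and 29 under mimic control but 9, 15 and 20 under the mimic, or 1.21 ± 0.118 and 0.529 ± 0.203 CPM. The groups did not overlap, yet these are few reads, and per length it was the lowest member tested (0.228 RPKM with mimic control). The mimic library with 9 reads was under the filter's minimum count, whereas every control library was above it. Stxbp6 could thus not have entered the test on the mimic samples alone. Where every sample had to reach that minimum, Stxbp6 was not tested. The log2 fold change was -1.20 ± 0.278 (adjusted p = 0.00276), and it ran from -1.47 to -0.91 when each library was left out. Stxbp6 lies at chr12:44852484-45074709 on the minus strand and holds no TTGCCAA in its 3′-UTR, but 2 copies of TGTTTAC. Tested directly against a 1.5-fold change with edgeR's glmTreat it did not pass.

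Stxbp2, which encodes the Sec1/Munc18 protein Munc18-2, did not pass (0.053, adjusted p = 0.488). Stxbp5, the tomosyn gene, whose product binds syntaxin in place of a VAMP, rose from 26.1 ± 0.921 to 28.8 ± 1.4 CPM (0.14, adjusted p = 0.0449). Stxbp5 did not pass in DESeq2, with upper-quartile factors or with no filter (adjusted p from 0.0502 to 0.0954). Nor did it pass without control replicate 1 or 3 or mimic replicate 2 (adjusted p from 0.0974 to 0.165). Stxbp4, of synip, which binds syntaxin 4, did not pass (0.083, adjusted p = 0.239). The Munc18c gene, the partner of syntaxin 4, is listed as Stxbp3a and so falls outside the symbol rule. It was looked at after its values were seen, and had 22.7 ± 0.932 CPM with mimic control and 26.7 ± 0.178 CPM with the mimic (0.23 ± 0.053, adjusted p = 0.00238).

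The disassembly factors went in opposite directions. Napa, which encodes the adaptor alpha-SNAP, was among the most abundant members, with 170, 174 and 171 CPM under mimic control and 142, 144 and 140 CPM under the mimic. The groups did not overlap, and the level fell by 17.4% (log2 fold change -0.28 ± 0.027, adjusted p = 1.8e-06). Nsf, the ATPase, had 72.0, 72.3 and 73.8 CPM against 78.8, 80.1 and 78.8 CPM. It rose by 0.12 ± 0.033 on the log2 scale (adjusted p = 0.0063), with each mimic sample above each control sample. The other adaptors Napb and Napg did not pass (-0.062 and -0.020).

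The members with and without the miR-182-5p seed match were set side by side as a description. All 6 members with TTGCCAA (15.0% of the 40, against 12.5% of 12515 tested genes with an annotated 3′-UTR) had log2 fold changes below 0, as did 967 of the 1568 genes with the match among all genes and 5340 of the 10947 without it. Of the 6, Vamp3, Napa, Stx17 and Snap47 passed the adjusted p, and Snap23 and Vti1a did not. Of the 34 members without it, 18 were below 0, with 7 lower and 9 higher by the adjusted p. The median log2 fold change was -0.26 with the match and -0.011 without it, and over all genes -0.069 and 0.0072. Among all genes 37.0% of the 1568 with the match were lower by the adjusted p, against 22.1% of the 10947 without it. The members' 3′-UTRs were longer than those of all genes (medians 1959 and 1202 bases), and longer 3′-UTRs hold more matches of any kind. The 8-base match TTGCCAAA was present in 4 of the 40 members and in 5.24% of all genes. The miR-30a-5p match TGTTTAC was present in 10 of the 40 members (against 16.4% of all genes), of which 4 were lower and 4 higher by the adjusted p. Over all genes 20.9% with TGTTTAC were lower and 31.5% higher, against 24.6% and 22.4% without it. Vamp3 holds this match too, at bases 584 to 590 of its 3′-UTR, ahead of TTGCCAA at bases 687 to 693.

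**Figure D4:**
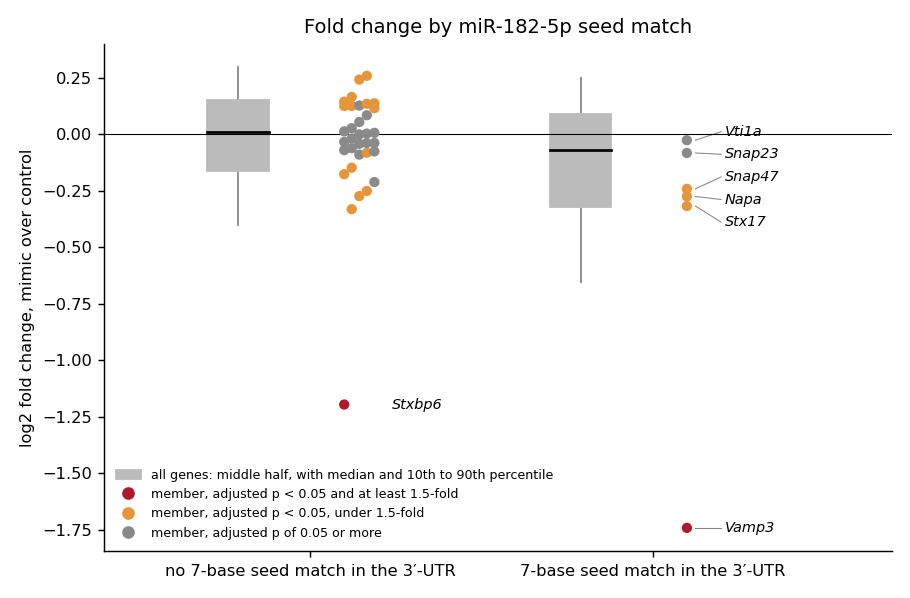
Log2 fold change (y axis) of members (points) and of all tested genes with an annotated 3′-UTR (grey boxes: quartiles, with the median as a line and whiskers from the 10th to the 90th percentile), split by the miR-182-5p match TTGCCAA. The 6 members with the match lie at or below -0.027, and Vamp3 lies lowest at -1.74, whereas Stxbp6, at -1.20, has no match.

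Other genes of the fusion machinery were counted in lists, to be read against all genes, of which 23.5% were lower and 23.2% higher by the adjusted p and 7.45% were called. Of 18 SNARE regulators tested (further Sec1/Munc18 proteins, Munc13 proteins, a complexin, taxilins and SNAREs outside the symbol rule among them), 0 were called by edgeR, DESeq2 or limma-voom (9 passed an unadjusted p under 0.05), 3 were lower and 5 higher by the adjusted p, and the median log2 fold change was 0.066. Of 13 synaptotagmins and related calcium sensors tested, 4 were lower and 4 higher by the adjusted p and 2 were called, both lower. Doc2b, a calcium sensor that binds SNAREs and Munc18 proteins, had 4.52, 4.21 and 4.02 CPM with mimic control and 1.54, 1.40 and 1.59 CPM with the mimic. The groups lay far apart (log2 fold change -1.48 ± 0.139, adjusted p = 9.97e-07), and its 3′-UTR of 2966 bases holds 2 TTGCCAA matches. Sytl1, a synaptotagmin-like Rab effector, had 22, 15 and 13 reads against 5, 8 and 8 reads (-1.34 ± 0.365, adjusted p = 0.00777). All its mimic libraries were under the filter's minimum of 10 counts, so it entered the test through the control samples, and with 10 counts required in every sample it was not tested and 1 synaptotagmin was called. Of 30 tethering factors tested 1 was called. This was Exoc4, the exocyst subunit Sec8, with 96.7, 97.1 and 102 CPM against 60.9, 63.1 and 64.6 CPM (-0.65 ± 0.036, adjusted p = 5.42e-09). The exocyst docks vesicles before SNAREs engage, and the Exoc4 3′-UTR holds 1 TTGCCAA match. The Sytl1 3′-UTR, of 79 bases, holds no match. Other genes of the lists with a match were not called. Of those that passed the adjusted p, more were lower than higher. Among all genes with the match, 37.0% were lower and 18.2% higher by the adjusted p. Of the tethers, 6 were lower and 8 higher by the adjusted p, with a median of 0.046.

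Of 10 genes of the GLUT4 storage vesicle, read against the same shares, 5 were lower and 3 higher by the adjusted p and 0 were called by edgeR, DESeq2 or limma-voom (8 passed an unadjusted p under 0.05), with a median log2 fold change of -0.15. Slc2a4, which encodes GLUT4 itself, had 151, 157 and 140 CPM with mimic control and 95.3, 116 and 121 CPM with the mimic. All mimic samples were lower, although they spread more than the controls (149 ± 8.71 and 111 ± 13.5 CPM), and the log2 fold change was -0.43 ± 0.067 (adjusted p = 0.000111).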

How the data were processed

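RNA of 6 samples (poly(A)-selected, strand-specific libraries, per the labels) was sequenced. For each sample the authors deposited a list of raw counts for 22609 gene symbols, with 5 tally lines at its end. The submitters' processing notes name bcl2fastq, TopHat2, HTSeq and mm9; versions, annotation and the strand setting are not given in the sources used here. The tally lines (12.7 to 13% of uniquely aligned reads outside genes, 0.652 to 0.667% ambiguous) were left out of library sizes. Reads that aligned to several places were not counted, which can lower genes with near-identical copies. With 25869810 to 28796712 reads on genes, 3 reads were 0.103 to 0.118 CPM.

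Counts were tested in R 4.3.3 with edgeR 4.0.16 (TMM, filterByExpr with a minimum count of 10, glmQLFit, glmQLFTest, two-sided), with no block and with Benjamini-Hochberg adjustment over 13117 genes. Genes were called at 1.5-fold and an adjusted p under 0.05, the study's cutoffs. CPM used TMM-scaled library sizes. A standard error is the size of the log2 fold change divided by the square root of F. Lengths, overlaps and 3′-UTRs (the longest of each gene's protein-coding transcripts) came from GENCODE M21 on GRCm38, which matched 22171 symbols (1887 through an older symbol) and 42 of the 43 members, but not Vamp7. No coordinate of the mm9 build was used.

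The members, the lists and the classes were chosen with earlier results of these data known. Every called member and the 12 others with the smallest p are given sample by sample, except that the values of 2 members, which stay in the fits and counts, are not reported here. Of the lists, called genes and Slc2a4 are named. Alternatives were DESeq2 1.42.0, limma-voom (limma 3.58.1), other size factors, other filters, other fold cutoffs, a replicate block and leaving out each library. Python 3.11.15 with pandas 2.3.3, numpy 2.4.6, scipy 1.17.1 and matplotlib 3.10.9 made the tables and figures. The assays other than sequencing are not analysed here.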

Additional observations from a re-analysis of the deposited data

How the results depend on the processing

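The count of members called, 2 of 40, became 1 (Vamp3) with at least 10 counts required in every sample, since Stxbp6 was then not tested. It was also 1 with glmTreat against a 1.5-fold change, which Vamp3 passed and Stxbp6 did not. It was 20 with no fold cutoff, and 2 in each fit that left out a library (lowest 2, highest 2). With each library left out, 15 to 19 members passed the adjusted p, against 20 with all libraries, and the median log2 fold change of the members ran from -0.046 to -0.028. DESeq2 counted 17 members past the adjusted p and limma-voom 20. For the 13 members given sample by sample, all 168 log2 fold changes under other settings kept their direction and their side of the threshold, apart from Stxbp6 where it was not tested or with glmTreat. Of the other members past the adjusted p, Snap29, Stxbp5, Ykt6, Vamp2, Stx1a and Vamp5 did not pass under some settings, as given beside their values, with no change of direction. Same-numbered samples did not deviate together (correlations -0.18, -0.0424 and -0.0748), so the numbers were not taken to pair the samples; with the replicate block 2 members were called and 19 passed the adjusted p, at a median of -0.037. Of the lists, the synaptotagmins had 1 called gene with at least 10 counts in every sample and 4 without miR-182-5p mimic replicate 3, and the SNARE regulators had 1 called gene without mimic control replicate 3 or without mimic replicate 3. Depth limits Stxbp6, Sytl1, Snap25 and Stx19, which had at most 35 reads per library.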
